A study of Homo sapiens with 9 samples.

Results

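Long non-coding RNAs (lncRNAs) were followed after knockdown of KDM4C in cells labelled Huh7. The set holds 141 genes of the 32906 listed. They are the genes with a LINC number (108), the genes with an SNHG number, which stands for small nucleolar RNA host gene (19), and 14 well-studied lncRNAs from a list of 15 symbols, where the average over all 9 libraries reached 1 FPKM or more. FPKM is the number of sequenced fragments scaled to the exon length of a gene and to the size of the library, so that levels of genes of different lengths can be compared. The symbols alone matched 825 rows, of which 789 were LINC rows, and 471 of those LINC rows had a mean below 0.1 FPKM. The genes were thus selected on their measured mean FPKM, so the level itself is not a finding. In 35 of them the mean of at least 1 group was below 1 FPKM, so these entered through the groups where they are higher and the selection favours a difference. Just inside the limit lay LINC00174 at 1.00, LINC00685 at 1.03 and LINC01391 at 1.05 FPKM. Just outside lay LINC01194 at 0.989, LINC00634 at 0.985 and LINC01106 at 0.983 FPKM. All 141 passed the filter on low values used for the tests, a mean of at least 1 FPKM in 1 or more groups. SNHG26 (0.915 FPKM), SNHG22 (0.183 FPKM) and MEG3, which was at 0 in all but 1 library, also fell outside.

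Huh7, a line derived from a human hepatocellular carcinoma, received for 48 hours either a scrambled siRNA (Scramble) or 1 of 2 siRNAs against the histone demethylase KDM4C (Si-KDM4C#1 and Si-KDM4C#2). Each group had 3 libraries of total RNA, and no other allele or agent differed between the groups according to the labels. The labels number the libraries 1 to 3 without saying whether they came from separate cultures, so p-values measure the spread between these libraries, which may be technical. Library totals recovered from the deposited values ran from 14597501 to 18058558 fragments. KDM4C itself was at 4.88, 4.63 and 4.57 FPKM in the Scramble libraries, 1.18, 1.102 and 1.13 FPKM in those of Si-KDM4C#1 and 0.256, 0.349 and 0.256 FPKM in those of Si-KDM4C#2. The 3 groups did not overlap, and the target was lower with either siRNA, by log2 fold changes of -1.41 (adjusted p = 2.65e-07) and -2.15 (adjusted p = 5.45e-08) in limma. Hepatocyte markers were nearly absent, although Huh7 is a line of hepatocyte origin. The 9 hepatocyte markers that were listed, AFP, APOA1 and SERPINA1 included, were each below 1 FPKM in every library and together reached at most 0.389 FPKM, while of the 3 epithelial markers listed KRT8 and KRT18 were abundant and CDH1 was below 1 FPKM in every library. Of the 6 mesenchymal markers listed, 2 were below 1 FPKM in every library. The 6 together reached up to 82.12 FPKM in the Scramble libraries, 83.56 FPKM in those of Si-KDM4C#1 and 94.99 FPKM in those of Si-KDM4C#2. Each immune and endothelial marker checked was below 1 FPKM in every library.

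An SNHG gene is transcribed and spliced, and small nucleolar RNAs (snoRNAs) are released from its introns. Box C/D snoRNAs guide 2'-O-methylation and box H/ACA snoRNAs guide pseudouridylation of ribosomal and spliceosomal RNA, while the related scaRNAs act in Cajal bodies. The spliced exons of many host genes are degraded by nonsense-mediated decay when they are translated, and several hosts begin with a pyrimidine-rich stretch like that of ribosomal protein mRNAs. The other well-studied lncRNAs act in different ways: MALAT1 and NEAT1 stay in the nucleus, NEAT1 builds paraspeckles, H19 is imprinted, HOTAIR and HOTTIP arise in HOX clusters, NORAD binds PUMILIO proteins and MIR17HG is the precursor of a microRNA cluster. Most LINC RNAs have no assigned function.

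GENCODE release 29 places a snoRNA or scaRNA inside 24 of the 141 genes, on the same strand. These are all 19 SNHG genes, DANCR, ZFAS1, EPB41L4A-AS1, LINC02001 and LINC00888. GAS5, also known as a snoRNA host, has none annotated in that release. One snoRNA is shown for each of 7 of the 9 host genes whose exons passed both limits with at least 1 siRNA, because it is the product that such a gene carries in its introns. Capitals mark the TGATGA (box C) and CTGA (box D) of a C/D snoRNA or the ACA near the 3' end of an H/ACA snoRNA, and positions are in GRCh38.
SNORA24 in SNHG8, chr4:118279190-118279320, strand +: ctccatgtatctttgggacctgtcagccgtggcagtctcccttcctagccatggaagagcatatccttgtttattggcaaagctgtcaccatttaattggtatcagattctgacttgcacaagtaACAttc
SNORD60 in SNHG19, chr16:2155023-2155105, strand -: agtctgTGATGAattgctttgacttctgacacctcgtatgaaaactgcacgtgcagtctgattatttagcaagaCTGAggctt
SNORA17A in SNHG7, chr9:136726747-136726879, strand -: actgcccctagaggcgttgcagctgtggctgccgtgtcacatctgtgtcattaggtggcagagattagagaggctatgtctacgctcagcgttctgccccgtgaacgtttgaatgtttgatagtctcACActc
SNORD104 in SNHG25, chr17:64146083-64146152, strand +: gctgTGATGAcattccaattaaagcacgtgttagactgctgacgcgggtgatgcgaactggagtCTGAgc
SNORD50B in SNHG5, chr6:85677589-85677658, strand -: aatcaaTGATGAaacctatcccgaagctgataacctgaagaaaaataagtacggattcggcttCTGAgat
SNORA9 in SNHG15, chr7:44985378-44985510, strand -: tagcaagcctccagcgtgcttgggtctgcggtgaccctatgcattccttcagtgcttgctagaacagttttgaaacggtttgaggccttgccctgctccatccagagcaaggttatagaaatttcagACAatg
SNORD7 in LINC02001, chr17:35573657-35573753, strand +: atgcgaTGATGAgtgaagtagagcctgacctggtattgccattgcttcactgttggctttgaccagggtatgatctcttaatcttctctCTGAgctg

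Each of these snoRNAs lies in an intron of 1 or more of the host transcripts that span it: both for SNORD104, the single one for SNORD60, 21 of 23 for SNORD50B, 8 of 9 for SNORA9, 4 of 5 for SNORA24, 2 of 3 for SNORA17A and 1 of 2 for SNORD7. The values below are those of the host genes' exons. Of the hosted snoRNAs with a snoRNA or scaRNA symbol, 12 had rows of their own and the highest value in any library was 12.0 FPKM, so the snoRNAs themselves were not compared.

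Pyrimidine-rich starts were looked for in the RefSeq promoters (GRCh38.p14), as an unbroken run of at least 8 C or T letters on the transcript's strand that begins within 15 bases of the annotated start. Such a run was found in 4 of the 15 SNHG genes with a RefSeq promoter (26.7%), in 11 of 96 genes of the whole set (11.5%), in 17.8% of all RefSeq genes and in 53 of 62 cytosolic ribosomal protein genes (85.5%). The 4 SNHG starts are shown with the run in capitals, 15 bases before and 20 after the annotated start. The run of SNHG7 begins 14 bases before its annotated start and, at 11 bases, ends before it.
SNHG4, chr5:139274086-139274120, strand +: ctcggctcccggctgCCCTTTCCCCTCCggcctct
SNHG7, chr9:136728165-136728199, strand -: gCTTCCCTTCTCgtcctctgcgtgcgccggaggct
SNHG12, chr1:28581854-28581888, strand -: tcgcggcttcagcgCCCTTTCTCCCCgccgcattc
SNHG16, chr17:76557749-76557783, strand +: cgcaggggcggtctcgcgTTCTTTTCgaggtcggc

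Most SNHG genes rose with each siRNA. With Si-KDM4C#1, 16 of the 19 were higher and 1 was lower at an FDR under 0.05, with a median log2 fold change of 0.83, whereas 31.7% of the 14363 genes tested were higher, 33.9% were lower and the median of all genes was -0.03. Under the stricter call, which also asks for a fold change over 2, 7 of the 19 were called and all of them were higher, against 4.04% higher and 4.83% lower among all genes. With Si-KDM4C#2, 14 were higher and 2 lower at the FDR limit with a median of 0.52, beside 34.4% higher, 25.0% lower and a median of 0.06 among all genes. The 3 called under the stricter rule were higher, against 2.60% higher and 2.30% lower among all genes. Both comparisons use the same Scramble libraries. In such bulk libraries fewer cells of a type and less RNA per cell cannot be told apart. All 6 knockdown libraries lay above all 3 Scramble libraries for 15 of the 19 SNHG genes and below them for 1, compared with 20.7% and 17.5% of all genes. The summed level of the SNHG genes was 233 to 239.7 FPKM in the Scramble libraries, 361 to 403 FPKM in those of Si-KDM4C#1 and 319 to 327 FPKM in those of Si-KDM4C#2.

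**Figure D1:**
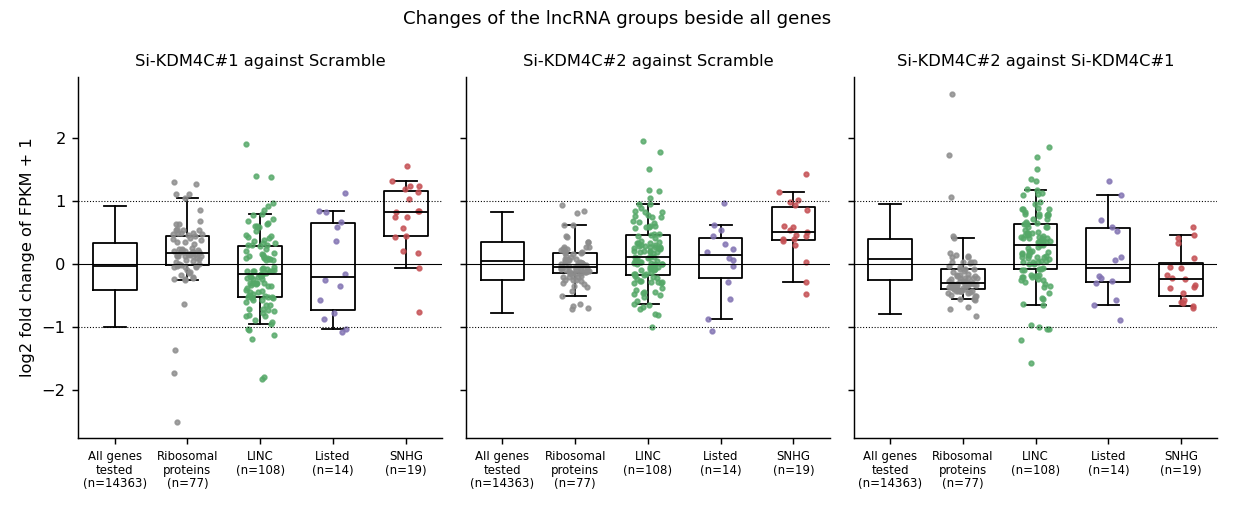
Each point is 1 gene, placed by its log2 fold change of FPKM + 1 in 1 of the 3 comparisons; boxes span the quartiles with the median as a line, whiskers run from the 5th to the 95th percentile, and the dotted lines mark a fold change of 2. The SNHG genes have medians of 0.83 and 0.52 against Scramble, while those of all 14363 genes are -0.03 and 0.06.

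SNHG7 had the largest log2 fold change of the SNHG genes with Si-KDM4C#1. It was at 6.19, 5.08 and 5.48 FPKM in the Scramble libraries, 16.2, 19.6 and 19.5 FPKM in those of Si-KDM4C#1 and 12.3, 11.4 and 11.2 FPKM in those of Si-KDM4C#2. The 3 groups were apart in this order, with log2 fold changes against Scramble of 1.56 (SE 0.084, adjusted p = 2.56e-07) and 0.94 (SE 0.084, adjusted p = 1.05e-05). The gene carries SNORA17A and SNORA17B and lies at chr9:136721366-136728184 on the minus strand. SNHG8, the host of SNORA24 at chr4:118278709-118279823 on the plus strand, passed both limits with each siRNA. Its levels were 10.98, 11.7 and 10.1 FPKM in the Scramble libraries, 24.1, 31.3 and 26.8 FPKM in those of Si-KDM4C#1 and 23.3, 25.7 and 20.4 FPKM in those of Si-KDM4C#2. Against Scramble the log2 fold changes were 1.25 (SE 0.10, adjusted p = 4.32e-06) and 1.02 (SE 0.10, adjusted p = 2.66e-05), and the siRNA groups overlapped each other. SNHG19, a short gene with SNORD60, was the most abundant SNHG gene that changed. The Scramble libraries had 28.5, 29.8 and 29.4 FPKM, those of Si-KDM4C#1 had 72.5, 79.9 and 59.5 FPKM and those of Si-KDM4C#2 had 56.97, 49.4 and 56.4 FPKM. These are log2 fold changes of 1.24 (SE 0.096, adjusted p = 2.67e-06) and 0.87 (SE 0.096, adjusted p = 4.37e-05), and the Scramble libraries lay below all others. SNHG25, with SNORD104 and SNORA50C, was barely detected without knockdown. Its Scramble mean was 0.159 FPKM and it reached the limit of 1 FPKM only through the knockdown groups, so its values are a description. In the main fit it is 1 of the 7 and of the 3 higher calls above. It also counts as higher in the main counts against Scramble for SNHG genes, host genes and the whole set. Scramble libraries had 0.476, 0 and 0 FPKM, against 1.59, 2.22 and 1.79 FPKM in those of Si-KDM4C#1 and 0.928, 1.39 and 2.53 FPKM in those of Si-KDM4C#2. Over the 3 libraries of a group these are 2, 25 and 22 fragments, which give ratios of 12.3 (95% exact interval 3.08 to 108) and 11.0 (2.70 to 96.5) that cover counting error only.

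SNHG15, SNHG17 and SNHG5 passed both limits with Si-KDM4C#1 and the FDR limit with Si-KDM4C#2. SNHG15, which carries SNORA9, was at 11.6, 10.9 and 10.3 FPKM in the Scramble libraries, 23.9, 25.9 and 29.03 FPKM in those of Si-KDM4C#1 and 17.7, 17.04 and 16.2 FPKM in those of Si-KDM4C#2, and its log2 fold changes were 1.19 (adjusted p = 4.77e-07) and 0.59 (adjusted p = 7.56e-05). SNHG17, which holds the SNORA71 family, had 5.997, 5.63 and 4.84 FPKM, 12.98, 13.5 and 13.7 FPKM and 6.997, 8.98 and 7.73 FPKM in the same order of groups, and log2 fold changes of 1.15 (adjusted p = 2.44e-06) and 0.45 (adjusted p = 0.00163). SNHG5, the host of SNORD50B, had 8.61, 9.36 and 8.86 FPKM, 17.3, 21.2 and 19.6 FPKM and 12.6, 12.6 and 13.1 FPKM in that order, and log2 fold changes of 1.03 (adjusted p = 7.94e-07) and 0.47 (adjusted p = 0.000232). In all 3 genes each group was apart from the others, Si-KDM4C#1 highest and Scramble lowest. The opposite order of the siRNAs was seen in SNHG4, SNHG12 and SNHG3. SNHG4 was at 4.69, 5.301 and 5.76 FPKM in the Scramble libraries, 10.7, 10.3 and 9.57 FPKM in those of Si-KDM4C#1 and 16.1, 16.2 and 15.2 FPKM in those of Si-KDM4C#2, and its log2 fold changes were 0.84 (SE 0.067, adjusted p = 3.2e-06) and 1.43 (SE 0.067, adjusted p = 2.06e-07). SNHG12 rose from a mean of 3.87 ± 0.694 FPKM (SD, n = 3) to 6.24 ± 0.836 FPKM and 8.61 ± 0.563 FPKM, by 0.58 (adjusted p = 0.00125) and 0.99 (adjusted p = 4.75e-05). SNHG3, with SNORA73A and SNORA73B, rose by 0.22 (adjusted p = 0.00454) and 0.55 (adjusted p = 1.48e-05) from 16.1 ± 0.953 FPKM, and the smaller change was 0.09 (adjusted p = 0.145) under quantile normalization. Exons of SNHG4 overlap those of MATR3 on the same strand and SIL1 on the other, those of SNHG12 overlap TRNAU1AP and those of SNHG3 overlap RCC1, so fragments of these genes may have been split or shared in the counting.

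**Figure D2:**
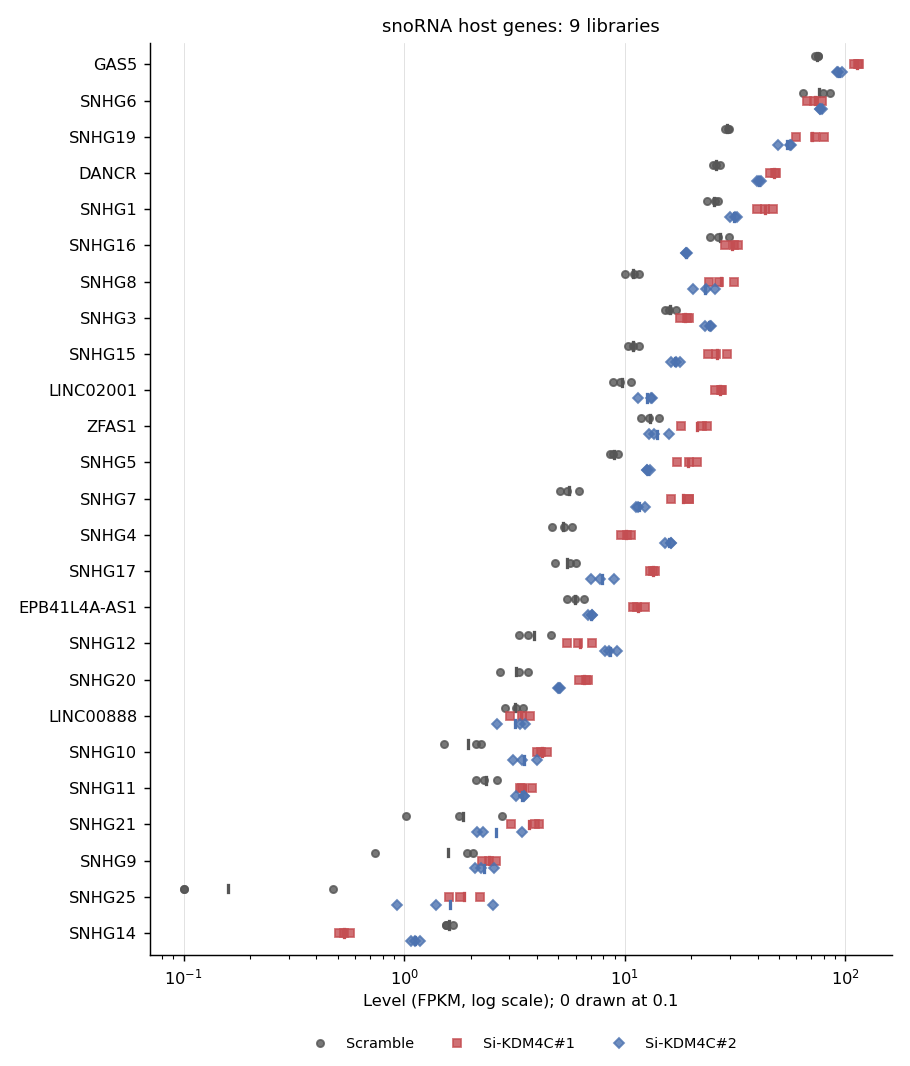
Level in FPKM on a log axis of the 24 genes with an annotated snoRNA and of GAS5, 1 symbol per library with short vertical lines at the group means, sorted by the mean over 9 libraries (a value of 0 is drawn at 0.1). Scramble libraries lie to the left of both siRNA groups in most rows, SNHG6 and LINC00888 overlap with both, and SNHG14 at the bottom has the opposite order.

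The remaining SNHG genes stayed under a fold change of 2 on the log2(FPKM + 1) scale, although limma voom on recovered fragments gave 1.19 for SNHG10 and 1.13 for SNHG21 with Si-KDM4C#1. SNHG1, the host of a series of box C/D snoRNAs that includes SNORD25 and SNORD30, had 25.3 ± 1.59 FPKM in the Scramble libraries, 43.4 ± 3.7 FPKM in those of Si-KDM4C#1 and 31.3 ± 1.26 FPKM in those of Si-KDM4C#2 (SD, n = 3), and rose by 0.75 (adjusted p = 6.57e-06) and 0.30 (adjusted p = 0.00367). SNHG20, the host of SCARNA16, rose by 0.84 (adjusted p = 9.97e-06) and 0.52 (adjusted p = 0.000363) from 3.23 ± 0.475 FPKM, and its exons overlap SEC14L1 on the same strand. SNHG10, the host of SCARNA13, rose by 0.83 (adjusted p = 7.92e-05) and 0.61 (adjusted p = 0.000776) from 1.95 ± 0.377 FPKM. SNHG11, next to SNHG17 on chromosome 20 and with SNORA60 and SNORA71E, rose by 0.43 (adjusted p = 0.000643) and 0.39 (adjusted p = 0.00138) from 2.35 ± 0.261 FPKM. SNHG21, the host of SCARNA15, rose with Si-KDM4C#1 by 0.75 (adjusted p = 0.0122), and the value with Si-KDM4C#2 was 0.37 (adjusted p = 0.169). Exceptions were few. SNHG6, the host of SNORD87 and the most abundant SNHG gene, was at 64.3, 78.8 and 84.98 FPKM in the Scramble libraries, 67.01, 78.7 and 71.9 FPKM in those of Si-KDM4C#1 and 78.4, 77.04 and 76.4 FPKM in those of Si-KDM4C#2. Its groups overlapped, with log2 values of -0.06 (adjusted p = 0.59) and 0.03 (adjusted p = 0.778). SNHG9, the host of SNORA78, did not pass with values of 0.46 (adjusted p = 0.0559) and 0.40 (adjusted p = 0.0956), although all 6 knockdown libraries lay above Scramble, where the third library at 0.741 FPKM stood below the other two at 1.92 and 2.05 FPKM.

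SNHG14 moved the other way. This very long transcript on chromosome 15 (chr15:24978583-25419462, plus strand) holds the SNORD115 and SNORD116 clusters of the Prader-Willi region. It was at 1.67, 1.55 and 1.55 FPKM in the Scramble libraries, 0.566, 0.534 and 0.504 FPKM in those of Si-KDM4C#1 and 1.08, 1.11 and 1.19 FPKM in those of Si-KDM4C#2. The groups did not overlap, and the log2 fold changes were -0.75 (SE 0.088, adjusted p = 4.19e-05) and -0.28 (adjusted p = 0.0187). The Scramble libraries carried it over the limit of 1 FPKM, so these values are a description. SNHG14 is also the 1 SNHG gene counted above as lower with Si-KDM4C#1. At this low level the added 1 FPKM shrinks the change, and limma voom on the recovered fragments gave -1.50 and -0.56. The change with Si-KDM4C#2 missed the limit without Scramble library 1 (-0.26, adjusted p = 0.0562) or without Si-KDM4C#2 library 1 (-0.27, adjusted p = 0.0555), and after adjustment for exon length (-0.16, adjusted p = 0.133). Its exons overlap SNRPN on the same strand and UBE3A on the opposite strand. SNHG16, the host of SNORD1A to SNORD1C, fell with Si-KDM4C#2. It had 29.8, 26.6 and 24.3 FPKM in the Scramble libraries, 28.3, 31.1 and 32.6 FPKM in those of Si-KDM4C#1 and 18.9, 19.2 and 18.99 FPKM in those of Si-KDM4C#2. The log2 fold change was -0.47 (adjusted p = 0.000373) with Si-KDM4C#2, and with Si-KDM4C#1 it was 0.19 (adjusted p = 0.046) with overlapping groups. The latter missed the limit with the replicate number as a block (adjusted p = 0.0783), under quantile normalization (adjusted p = 0.909) and without any 1 of 7 libraries, all but Scramble library 1 and Si-KDM4C#1 library 1 (adjusted p from 0.0615 to 0.160).

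Most host genes outside the SNHG series also rose with Si-KDM4C#1. DANCR, which carries SNORA26, was at 24.99, 26.04 and 27.04 FPKM in the Scramble libraries, 48.03, 45.3 and 48.4 FPKM in those of Si-KDM4C#1 and 40.6, 39.7 and 41.4 FPKM in those of Si-KDM4C#2. Its log2 fold changes were 0.84 (SE 0.041, adjusted p = 1.54e-07) and 0.62 (SE 0.041, adjusted p = 1.71e-06), and the groups were apart. GAS5, the most abundant host gene by the mean over 9 libraries, had 75.1, 75.05 and 72.8 FPKM, 115, 109 and 114 FPKM and 91.3, 92.8 and 96.4 FPKM in the same order of groups. It rose by 0.59 (SE 0.035, adjusted p = 4.45e-07) and 0.33 (SE 0.035, adjusted p = 3.52e-05), and the groups were apart. Exons of GAS5-AS1 overlap it on the other strand. ZFAS1, with SNORD12, SNORD12B and SNORD12C, rose with Si-KDM4C#1 by 0.67 (adjusted p = 0.000413) from 12.97 ± 1.23 FPKM, while Si-KDM4C#2 gave 0.11 (adjusted p = 0.422) with groups that overlapped. EPB41L4A-AS1, with SNORA13, rose by 0.84 (adjusted p = 2.66e-06) and 0.20 (adjusted p = 0.0253) from 5.98 ± 0.531 FPKM, and the smaller change missed the limit under quantile normalization (adjusted p = 0.102), by limma voom (adjusted p = 0.148), after adjustment for exon length (adjusted p = 0.376) and without Scramble library 1 or 2 or Si-KDM4C#2 library 2 or 3 (adjusted p from 0.0603 to 0.0826). LINC02001, the gene around SNORD7 at chr17:35568109-35574843 on the plus strand, was at 9.56, 8.87 and 10.6 FPKM in the Scramble libraries, 27.7, 27.3 and 25.7 FPKM in those of Si-KDM4C#1 and 11.5, 13.2 and 13.2 FPKM in those of Si-KDM4C#2. It passed both limits with Si-KDM4C#1, at 1.39 (SE 0.072, adjusted p = 1.97e-07), and rose by 0.36 (adjusted p = 0.00198) with Si-KDM4C#2. LINC00888, the remaining host gene, did not pass with either siRNA, at 0.07 (adjusted p = 0.558) and -0.01 (adjusted p = 0.971). In all, 20 of the 24 genes with an annotated snoRNA were higher and 1 lower at the FDR limit with Si-KDM4C#1 (median 0.83), and 17 were up and 2 down with Si-KDM4C#2 (median 0.46), beside 31.7% of all genes higher and 33.9% lower for Si-KDM4C#1, and 34.4% higher and 25.0% lower for Si-KDM4C#2. The 106 LINC genes without one had 23 up and 38 down with Si-KDM4C#1 (median -0.16), and 36 up and 19 down with Si-KDM4C#2 (median 0.11). The 38 (35.8%) and the 36 (34%) are shares close to those of all genes. The 23 (21.7%) and the 19 (17.9%) are below the shares of all genes.

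Lists of genes known to act with host genes were counted beside 31.7% of all genes higher and 33.9% lower for Si-KDM4C#1, and 34.4% higher and 25.0% lower for Si-KDM4C#2. Past both limits the shares of all genes were 4.04% and 4.83%, and 2.60% and 2.30%, in the same order. The 77 cytosolic ribosomal protein genes, whose mRNAs begin with pyrimidines, had 47 higher and 11 lower at the FDR limit with Si-KDM4C#1 (median 0.18) and 24 up and 30 down with Si-KDM4C#2 (median -0.04). With Si-KDM4C#1, 5 were higher past both limits, with log2 fold changes of 1.31 for RPL26, 1.27 for RPL11, 1.12 for RPS28, 1.11 for RPS21 and 1.05 for RPL36. The 3 lower ones, RPS12 at -2.50 (adjusted p = 2.48e-09), RPL23A at -1.73 (adjusted p = 5.77e-09) and RPL3 at -1.36 (adjusted p = 1.31e-07), are themselves known as snoRNA hosts. The 5 and the 3 of 77 are shares not far from those of all genes. Hosts among the other ribosomal protein genes were not counted, and a link between hosting and these falls was not tested. Of 17 snoRNP proteins and assembly factors, 12 were up and 1 down with Si-KDM4C#1 and 11 up and 1 down with Si-KDM4C#2. NOLC1, a nucleolar chaperone of snoRNPs, passed both limits with Si-KDM4C#2, at 38.7, 39.4 and 39.3 FPKM in the Scramble libraries and 91.8, 89.7 and 91.2 FPKM in those of Si-KDM4C#2, a log2 fold change of 1.20 (adjusted p = 5.45e-08). With Si-KDM4C#1 its log2 fold change was 0.31 (adjusted p = 0.000144). The core proteins NOP10 and NHP2 of H/ACA particles rose by 0.41 (adjusted p = 8.49e-05) and 0.86 (adjusted p = 2.45e-06) with Si-KDM4C#1, and FBL, the methyltransferase of C/D particles, rose by 0.96 (adjusted p = 4.15e-07). Of 16 nonsense-mediated decay factors, 9 were up and 2 down with Si-KDM4C#1 and 10 up and 1 down with Si-KDM4C#2. RNPS1 and MAGOH, both linked to the exon junction complex, passed both limits with Si-KDM4C#1, at 1.45 (adjusted p = 1.7e-08) and 1.17 (adjusted p = 1.6e-07). EIF4A3, the helicase of that complex, rose by 0.47 (adjusted p = 6.25e-06) with Si-KDM4C#1. Of 8 regulators of pyrimidine-rich mRNAs, 3 were higher and 4 lower at the FDR limit with Si-KDM4C#1, and 2 were up and 5 down with Si-KDM4C#2. EIF4EBP1, a translation repressor, was higher with Si-KDM4C#1 at 1.15 (adjusted p = 1.46e-07) and lower with Si-KDM4C#2 at -0.45 (adjusted p = 9.21e-05). The kinase MTOR was lower with Si-KDM4C#1 at -1.05 (adjusted p = 3.2e-06), and LARP1, which binds these mRNAs, rose by 0.98 (adjusted p = 1.75e-08) and 0.58 (adjusted p = 5.38e-07). What part any of these genes had in the level of the host genes was not tested.

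Among the well-studied lncRNAs with no annotated snoRNA, H19, MALAT1, NEAT1, HOTAIR, UCA1 and TUG1 fell with Si-KDM4C#1, and PVT1 and MIR17HG rose. Of the 14 listed genes, host genes included, 6 were up and 8 down with Si-KDM4C#1 at the FDR limit, and 7 were up and 4 down with Si-KDM4C#2. The shares of all genes were 31.7% and 33.9%, and 34.4% and 25.0%. H19, the imprinted RNA at chr11:1995176-2001470 on the minus strand, was at 168, 132 and 125 FPKM in the Scramble libraries, 56.7, 74.2 and 68.1 FPKM in those of Si-KDM4C#1 and 99.8, 94.7 and 93.3 FPKM in those of Si-KDM4C#2. The groups were apart, and the log2 fold changes were -1.08 (SE 0.12, adjusted p = 2.89e-05) and -0.54 (SE 0.12, adjusted p = 0.00315). CDKN1C, an imprinted cell cycle inhibitor of the same chromosome region, was at 30.3, 27.9 and 29.8 FPKM in the Scramble libraries and fell, at -0.98 (adjusted p = 1.08e-05) and -1.43 (adjusted p = 1.55e-06), while DLK1 was below 0.1 FPKM throughout. MALAT1, an abundant RNA of nuclear speckles, was at 157, 161 and 112 FPKM in the Scramble libraries, 72.6, 68.1 and 92.4 FPKM in those of Si-KDM4C#1 and 66.9, 67.6 and 67.9 FPKM in those of Si-KDM4C#2. It was the only gene of the set past both limits downward with Si-KDM4C#2, at -1.06 (SE 0.14, adjusted p = 0.000157), and it fell with Si-KDM4C#1, at -0.87 (SE 0.14, adjusted p = 0.000438). The third Scramble library was well below the other two, and without Scramble library 1 or 2 the change with Si-KDM4C#2 was -0.98 or -0.97, short of a fold change of 2. NEAT1, the RNA that builds paraspeckles and the neighbour of MALAT1 on chromosome 11, went in opposite directions. It had 79.6, 70.2 and 63.3 FPKM in the Scramble libraries, 40.4, 44.98 and 37.9 FPKM in those of Si-KDM4C#1 and 100.4, 105 and 106 FPKM in those of Si-KDM4C#2. The groups did not overlap, with -0.77 (SE 0.083, adjusted p = 2.5e-05) and 0.55 (SE 0.083, adjusted p = 0.000351) against Scramble and 1.32 (SE 0.083, adjusted p = 8.87e-07) between the siRNAs.

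**Figure D3:**
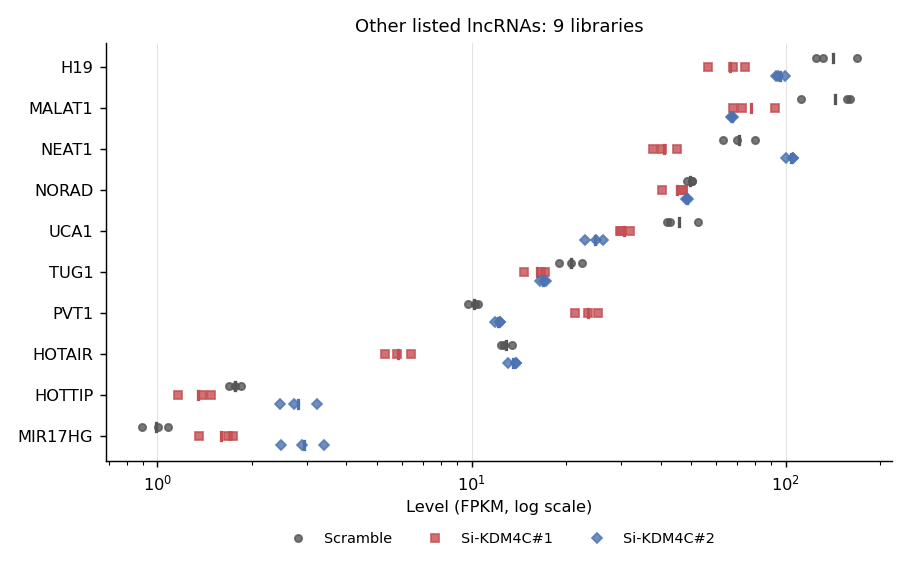
Level in FPKM on a log axis of the 10 well-studied lncRNAs without a snoRNA, 1 symbol per library with short vertical lines at the group means. NEAT1 and HOTTIP are lowest with Si-KDM4C#1 and highest with Si-KDM4C#2, HOTAIR is low with Si-KDM4C#1 alone, and MIR17HG and PVT1 lie above Scramble with both siRNAs.

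The 15 paraspeckle proteins had 3 higher and 9 lower at the FDR limit with Si-KDM4C#1 (31.7% and 33.9% of all genes), and 7 up and 2 down with Si-KDM4C#2 (34.4% and 25.0%). DAZAP1, an RNA-binding protein of paraspeckles, passed both limits with Si-KDM4C#1, at 1.07 (adjusted p = 2.08e-07), and NONO and SFPQ, on which paraspeckles depend, changed by -0.21 (adjusted p = 0.0011) and -0.16 (adjusted p = 0.0104) with Si-KDM4C#1 and by -0.49 (adjusted p = 5.31e-06) and 0.30 (adjusted p = 0.000303) with Si-KDM4C#2. HOTAIR, transcribed within the HOXC cluster, fell with 1 siRNA. It was at 12.4, 13.5 and 12.7 FPKM in the Scramble libraries, 5.299, 6.42 and 5.79 FPKM in those of Si-KDM4C#1 and 13.8, 13.8 and 13.1 FPKM in those of Si-KDM4C#2. The change with Si-KDM4C#1 was -1.02 (SE 0.063, adjusted p = 5.67e-07), that with Si-KDM4C#2 was 0.07 (adjusted p = 0.342) with overlapping groups, and the difference between the siRNAs was 1.09 (SE 0.063, adjusted p = 4.97e-07). HOTTIP, at the end of the HOXA cluster, was low in all groups. It had 1.85, 1.69 and 1.77 FPKM in the Scramble libraries, 1.17, 1.48 and 1.38 FPKM in those of Si-KDM4C#1 and 2.73, 3.23 and 2.46 FPKM in those of Si-KDM4C#2. It rose with Si-KDM4C#2 by 0.45 (adjusted p = 0.00235), and the smaller value with Si-KDM4C#1, -0.24 (adjusted p = 0.0438), missed the limit under the replicate block (adjusted p = 0.0561), under quantile normalization (adjusted p = 0.404) and without any 1 of the 3 Scramble libraries, Si-KDM4C#1 library 1 or 3 or Si-KDM4C#2 library 1 (adjusted p from 0.0608 to 0.139). HOXA13 overlaps it on the other strand. PVT1, which overlaps AC103705.1 on the other strand, rose with Si-KDM4C#1 past both limits. Its levels were 10.3, 10.5 and 9.72 FPKM in the Scramble libraries, 21.4, 25.2 and 23.6 FPKM in those of Si-KDM4C#1 and 12.3, 11.9 and 12.3 FPKM in those of Si-KDM4C#2, and the changes were 1.13 (SE 0.058, adjusted p = 2.05e-07) and 0.24 (adjusted p = 0.00605). The smaller one was 0.13 (adjusted p = 0.0777) after adjustment for GC content. UCA1, an RNA first described in bladder cancer, fell with both siRNAs. It was at 42.05, 42.8 and 52.7 FPKM in the Scramble libraries, 29.6, 29.98 and 31.9 FPKM in those of Si-KDM4C#1 and 22.98, 24.98 and 26.2 FPKM in those of Si-KDM4C#2, and the changes were -0.57 (adjusted p = 0.000213) and -0.86 (adjusted p = 1.79e-05). TUG1 also fell, at -0.34 (adjusted p = 0.00168) and -0.27 (adjusted p = 0.00671) from 20.7 ± 1.74 FPKM. NORAD, which sequesters PUMILIO proteins, was at 48.5, 50.4 and 50.3 FPKM in the Scramble libraries, 47.3, 47.03 and 40.5 FPKM in those of Si-KDM4C#1 and 49.04, 48.3 and 48.4 FPKM in those of Si-KDM4C#2. The value with Si-KDM4C#1 was -0.15 (adjusted p = 0.0415) and turned to 0.047 (adjusted p = 0.420) when the libraries were adjusted for GC content. It also missed the limit without any 1 of 7 libraries, all but Si-KDM4C#1 libraries 1 and 2 (adjusted p from 0.0502 to 0.101), and by limma voom (adjusted p = 0.149). With Si-KDM4C#2 the value was -0.03 (adjusted p = 0.627). PUM2, a PUMILIO protein, was at -0.10 (adjusted p = 0.0821) with Si-KDM4C#1 and -0.17 (adjusted p = 0.00773) with Si-KDM4C#2.

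MIR17HG, the precursor of the miR-17-92 cluster on chromosome 13 (chr13:91347820-91354579, plus strand), rose with both siRNAs. It was at 0.891, 1.08 and 1.003 FPKM in the Scramble libraries, 1.74, 1.35 and 1.68 FPKM in those of Si-KDM4C#1 and 3.40, 2.89 and 2.48 FPKM in those of Si-KDM4C#2, with changes of 0.38 (adjusted p = 0.0104) and 0.97 (adjusted p = 3.78e-05), and the 3 groups were apart. Its Scramble mean was 0.992 FPKM, just below the limit of 1 FPKM. The knockdown groups carried it over that limit, so these values are a description. On recovered fragments, limma voom gave log2 fold changes of 0.75 and 1.47. The main mature microRNAs that the transcript encodes are shown because they are what this gene delivers (RefSeq, GRCh38.p14; bases 2 to 8, the seed, in capitals). They form 4 seed families, and their levels were not analysed here.
miR-17-5p, chr13:91350618-91350640: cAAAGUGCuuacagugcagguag
miR-20a-5p, chr13:91351072-91351094: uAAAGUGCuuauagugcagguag
miR-18a-5p, chr13:91350756-91350778: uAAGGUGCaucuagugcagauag
miR-19a-3p, chr13:91350939-91350961: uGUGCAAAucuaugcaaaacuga
miR-19b-3p, chr13:91351245-91351267: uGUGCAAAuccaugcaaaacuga
miR-92a-3p, chr13:91351361-91351382: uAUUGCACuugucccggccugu

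miR-17-5p and miR-20a-5p share the seed AAAGUGC, miR-19a-3p and miR-19b-3p share GUGCAAA, and miR-18a-5p and miR-92a-3p each have their own. Of the 4 genes that process microRNAs, 2 were higher and 1 lower at the FDR limit with Si-KDM4C#1 (31.7% and 33.9% of all genes), and 3 were higher with Si-KDM4C#2 (34.4%). DICER1, the nuclease that cuts hairpins in the cytoplasm, was at 13.7, 13.2 and 11.7 FPKM in the Scramble libraries and 5.76, 6.58 and 5.25 FPKM in those of Si-KDM4C#1, a change of -1.02 (adjusted p = 4.34e-06), and at 0.03 (adjusted p = 0.797) with Si-KDM4C#2. DROSHA, which cuts the primary transcript, rose by 0.96 (adjusted p = 2.56e-07) and 0.45 (adjusted p = 5.87e-05), and the exporter XPO5 by 0.46 (adjusted p = 1.21e-05) and 0.19 (adjusted p = 0.00529). DGCR8, the partner of DROSHA, was at 0.05 (adjusted p = 0.378) and 0.26 (adjusted p = 0.00104).

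The 108 LINC genes moved in both directions and were mostly low. Their median level was 2.11 FPKM in the Scramble libraries, 1.86 FPKM in those of Si-KDM4C#1 and 2.37 FPKM in those of Si-KDM4C#2. Below 1 FPKM on average were 25 of them with Si-KDM4C#1, 9 with Scramble and 4 with Si-KDM4C#2. The set was selected on the mean level and no share of all genes stands beside these counts, so they are a description. With Si-KDM4C#1, 24 were higher and 38 lower at the FDR limit (33 and 30 under quantile normalization, where the higher ones were the more frequent), with a median of -0.15. With Si-KDM4C#2, 37 were higher and 19 lower, with a median of 0.11. The shares of all genes for these calls are those given above for the SNHG genes, and the 1538 other lncRNA genes tested had medians of -0.17 and 0.10. Past both limits were 3 up and 6 down with Si-KDM4C#1 (5 and 4 under quantile normalization), and 6 with Si-KDM4C#2, all higher, where quantile normalization gave 6 higher and 1 lower and limma voom 17 higher and 6 lower. In the main fit, 4.04% of all genes were higher and 4.83% lower past both limits with Si-KDM4C#1. With Si-KDM4C#2 these shares were 2.60% and 2.30%. The 3 and the 6 of 108 with Si-KDM4C#1 are shares close to those of all genes. Shares of all genes in the other settings are not given here. Over the whole set of 141, 11 were up and 8 down with Si-KDM4C#1 (12 and 7 under quantile normalization, 4 lower without Scramble library 1), and 9 up and 1 down with Si-KDM4C#2 (8 and 2 under quantile normalization). By limma voom on the fragments of the 130 genes it could test, these counts were 18 and 20, and 20 and 7.

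The most abundant LINC gene was LINC02582 on chromosome 18. It was at 158, 152 and 157 FPKM in the Scramble libraries, 129, 121 and 131 FPKM in those of Si-KDM4C#1 and 106, 115 and 118 FPKM in those of Si-KDM4C#2, and fell, at -0.30 (adjusted p = 0.000395) and -0.46 (adjusted p = 2.73e-05). The change with Si-KDM4C#1 was -0.06 (adjusted p = 0.322) after the adjustment for GC content. LINC02170 was at 88.99, 102 and 108 FPKM in the Scramble libraries and 72.7, 67.8 and 65.7 FPKM in those of Si-KDM4C#1, a change of -0.53 (adjusted p = 0.000126), and its value with Si-KDM4C#2 was -0.07 (adjusted p = 0.425). LINC00473, a cAMP-induced RNA, was at 19.98, 20.4 and 18.9 FPKM in the Scramble libraries, 30.6, 30.8 and 32.5 FPKM in those of Si-KDM4C#1 and 22.7, 19.9 and 21.6 FPKM in those of Si-KDM4C#2, and changed by 0.64 (adjusted p = 4.23e-06) and 0.11 (adjusted p = 0.101). Its rise was thus seen with Si-KDM4C#1, and the difference between the siRNAs was -0.53 (adjusted p = 1.89e-05).

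Of the LINC genes past both limits downward with Si-KDM4C#1, LINC00963 was the most abundant. It was at 26.6, 25.8 and 26.2 FPKM in the Scramble libraries, 7.42, 7.03 and 6.29 FPKM in those of Si-KDM4C#1 and 11.8, 13.9 and 12.5 FPKM in those of Si-KDM4C#2. The groups were apart, and the changes were -1.78 (SE 0.067, adjusted p = 3.25e-08) and -0.99 (SE 0.067, adjusted p = 1.92e-06). It lies on chromosome 9, at chr9:129483451-129513686, on the plus strand. LINC02395 had 4.24, 3.65 and 4.29 FPKM in the Scramble libraries, 0.436, 0.51 and 0.344 FPKM in those of Si-KDM4C#1 and 2.13, 2.53 and 2.06 FPKM in those of Si-KDM4C#2. It had the largest fall of the set, -1.82 (SE 0.092, adjusted p = 1.7e-07) with Si-KDM4C#1, from 920 to 98 fragments over 3 libraries, and fell, at -0.65 (adjusted p = 0.000223), with Si-KDM4C#2. LINC00641 had 3.62, 3.22 and 3.08 FPKM, 0.833, 0.935 and 0.937 FPKM and 1.73, 1.62 and 1.57 FPKM in the same order, with -1.18 (adjusted p = 8.54e-07) and -0.71 (adjusted p = 4e-05). For these genes every knockdown library lay below every Scramble library. LINC01394 fell, at -1.04 (adjusted p = 0.000349), with Si-KDM4C#1 on 54 and 17 fragments, and was at -0.41 (adjusted p = 0.0579) with Si-KDM4C#2. LINC00887, LINC00165 and LINC01589 were lower with each siRNA. The changes of LINC00887 were -0.88 (adjusted p = 7.25e-05) and -0.68 (adjusted p = 0.000519), those of LINC00165 -0.73 (adjusted p = 0.000195) and -0.79 (adjusted p = 0.000157), and those of LINC01589 -0.94 (adjusted p = 0.00247) and -0.81 (adjusted p = 0.00692). LINC01219, which the naming rule does not take, was the sixth LINC gene past both limits downward with Si-KDM4C#1, at -1.03 (adjusted p = 0.000545).

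LINC01315 had the largest rise with Si-KDM4C#1. It was at 1.46, 1.29 and 1.43 FPKM in the Scramble libraries, 7.12, 8.54 and 8.203 FPKM in those of Si-KDM4C#1 and 3.004, 2.94 and 2.68 FPKM in those of Si-KDM4C#2, on 85, 488 and 175 fragments per group. The changes were 1.90 (SE 0.074, adjusted p = 3.93e-08) and 0.69 (SE 0.074, adjusted p = 3.31e-05), and the groups were apart. LINC00324 rose with Si-KDM4C#1. It had 2.04, 2.23 and 2.35 FPKM, 6.52, 8.06 and 7.95 FPKM and 1.46, 2.22 and 1.97 FPKM in the same order of groups, and the changes were 1.40 (SE 0.11, adjusted p = 2.87e-06) and -0.16 (adjusted p = 0.233). Lower in level were LINC01391 and LINC01518. LINC01391, 204 bases from FOXL2, was at 0.4898 ± 0.12 FPKM in the Scramble libraries, 1.84 ± 0.164 FPKM in those of Si-KDM4C#1 and 0.808 ± 0.0488 FPKM in those of Si-KDM4C#2 (SD, n = 3), and it reached the limit of 1 FPKM only through Si-KDM4C#1, so these values are a description. LINC01518 rose by 0.86 (adjusted p = 0.000351) with Si-KDM4C#1 and was at -0.13 (adjusted p = 0.437) with Si-KDM4C#2. With Si-KDM4C#2 the largest rises were in LINC01976, LINC01703 and LINC01521. LINC01976 had 1.53, 0.869 and 1.48 FPKM in the Scramble libraries, 1.53, 4.42 and 2.01 FPKM in those of Si-KDM4C#1 and 9.96, 8.74 and 5.402 FPKM in those of Si-KDM4C#2, and the change with Si-KDM4C#2 was 1.96 (SE 0.29, adjusted p = 0.000281) on 27 and 166 fragments. LINC01703 had 0.887, 0.766 and 1.71 FPKM, 2.56, 2.84 and 4.02 FPKM and 6.68, 6.65 and 5.14 FPKM in the same order of groups, and rose by 0.98 (adjusted p = 0.001) and 1.77 (adjusted p = 2.58e-05). LINC01521, beside PATZ1 on chromosome 22, had 1.67, 0.712 and 0.931 FPKM, 0.855, 0.7404 and 0.865 FPKM and 5.71, 4.66 and 4.46 FPKM in the same order of groups, and changed by -0.18 (adjusted p = 0.32) and 1.52 (adjusted p = 2.52e-05). Most libraries of the other groups were below 1 FPKM, and those of Si-KDM4C#2 carried LINC01521 over that limit. Its values are therefore a description. In LINC01976 and LINC01521 the libraries of Si-KDM4C#2 were all above the other 6, and in LINC01703 the groups rose in the order Scramble, Si-KDM4C#1, Si-KDM4C#2. LINC00896 and LINC01003 also passed both limits with Si-KDM4C#2, at 1.17 (adjusted p = 1.39e-05) and 1.17 (adjusted p = 3.7e-06), and LINC00857, which the naming rule does not take, at 1.05 (adjusted p = 1.72e-06).

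**Figure D4:**
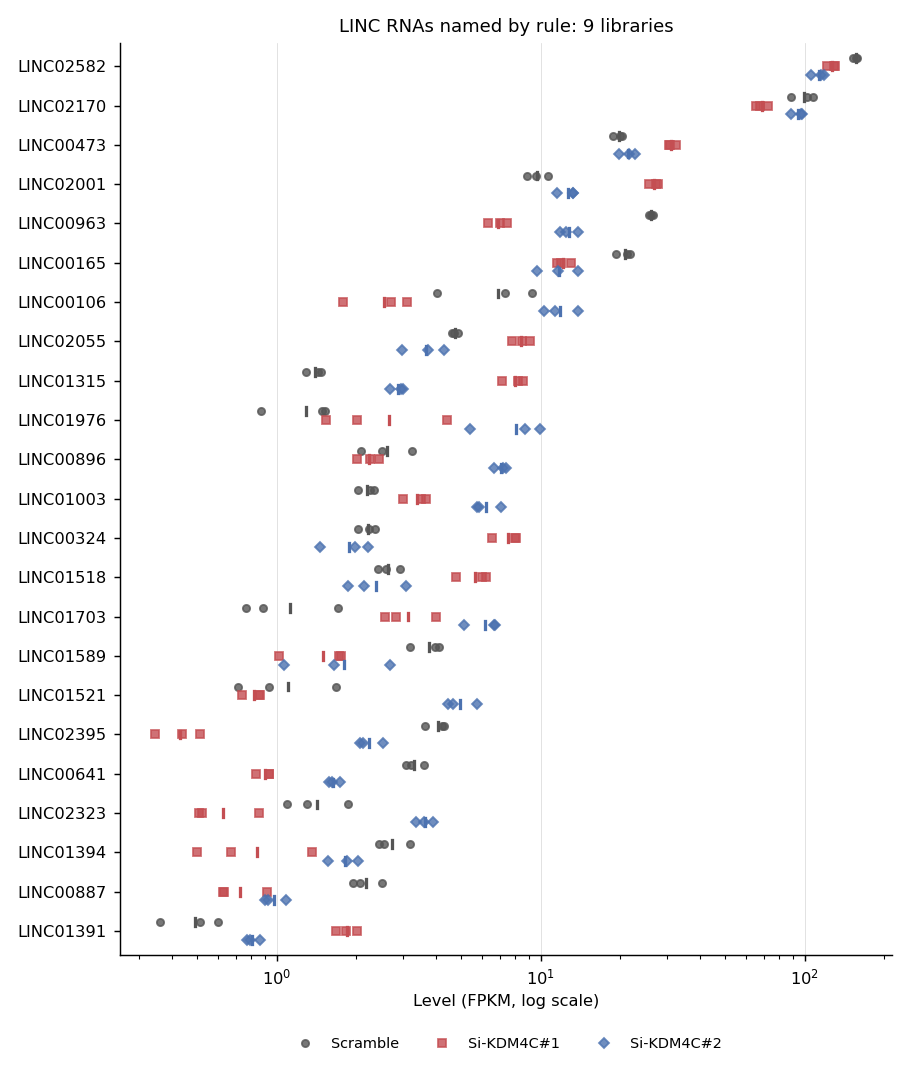
Level in FPKM on a log axis of the LINC genes named by rule, 1 symbol per library with short vertical lines at the group means, sorted by the mean over 9 libraries. LINC00963 and LINC02395 are highest with Scramble, LINC01315 and LINC00324 with Si-KDM4C#1, and LINC00106, LINC01521 and LINC02323 with Si-KDM4C#2.

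The siRNAs were also compared with each other, which does not use the Scramble libraries. Past both limits, 12 of the 141 genes were higher under Si-KDM4C#2 and 4 lower, against 4.41% and 2.49% of all genes (9 and 5 of the 141 under quantile normalization). At the FDR limit, 56 were higher and 29 lower, against 35.9% and 26.5% of all genes. The SNHG genes had 4 higher and 8 lower, with a median of -0.23, and the LINC genes had 47 higher and 15 lower (40 and 23 under quantile normalization), with a median of 0.30. Past both limits, 10 LINC genes were higher and 4 lower (7 and 5 under quantile normalization). LINC00106, on chromosome X, differed most on the log2(FPKM + 1) scale. By the size of the difference in limma voom on recovered fragments it came after LINC00853 at 2.67, LINC02323 at 2.44, LINC01521 at 2.43, LINC02395 at 2.25 and LINC00324 at -2.12. It was at 9.29, 7.33 and 4.04 FPKM in the Scramble libraries, 2.71, 3.12 and 1.79 FPKM in those of Si-KDM4C#1 and 11.3, 10.3 and 13.9 FPKM in those of Si-KDM4C#2. The difference between the siRNAs was 1.87 (SE 0.24, adjusted p = 0.000113), with -1.11 (adjusted p = 0.00277) and 0.75 (adjusted p = 0.0238) against Scramble, the latter lost without Scramble library 3 or Si-KDM4C#2 library 1 or 3 (adjusted p from 0.0504 to 0.0801) and after adjustment for GC content (0.52, adjusted p = 0.0867). LINC02323 had 1.86, 1.29 and 1.09 FPKM in the Scramble libraries, 0.518, 0.855 and 0.505 FPKM in those of Si-KDM4C#1 and 3.62, 3.37 and 3.91 FPKM in those of Si-KDM4C#2, a difference between the siRNAs of 1.52 (adjusted p = 7.36e-06). It was lower than Scramble with the first, at -0.57 (adjusted p = 0.00402), and higher with the second, at 0.95 (adjusted p = 0.000199). Also higher with Si-KDM4C#2 than with Si-KDM4C#1 were LINC01521 by 1.70 (adjusted p = 9.6e-06), LINC01976 by 1.35 (adjusted p = 0.0025) and LINC00896 by 1.32 (adjusted p = 5e-06). For LINC01521 this is a description, since it entered the set through Si-KDM4C#2. In the other direction, LINC00324 differed by -1.56 (adjusted p = 1.8e-06), LINC01315 by -1.21 (adjusted p = 7.58e-07) and LINC02001 by -1.03 (adjusted p = 1.61e-06). LINC02055 had 7.76, 8.51 and 9.09 FPKM in the libraries of Si-KDM4C#1 and 4.32, 2.97 and 3.73 FPKM in those of Si-KDM4C#2, a difference of -1.02 (adjusted p = 1.42e-05). With both siRNAs pooled against Scramble, 8 genes were higher and 2 lower past both limits (7 and 3 under quantile normalization), against 2.18% and 1.96% of all genes. SNHG25, SNHG4, SNHG8, SNHG19 and SNHG7 were 5 of the 8, with LINC01315, LINC01703 and LINC01976, and the 2 lower were LINC00963 and LINC02395. SNHG25 entered the set only through the knockdown groups, so its place among the 8 is a description.

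Position was set beside these changes. GENCODE release 29 gives a nearest protein-coding gene that is also listed for 130 of the 141 genes, and 95 of those neighbours were tested. For 47 the neighbour lay within 10 kb without overlap. Where both genes of such a close pair passed the FDR limit, 12 of 15 pairs moved the same way with Si-KDM4C#1 and 14 of 16 with Si-KDM4C#2. For neighbours over 10 kb away it was 7 of 20 and 5 of 15, and for overlapping genes 5 of 13 and 4 of 7. Between the siRNAs the shares were closer, 10 of 15 close pairs, 9 of 16 distant pairs and 6 of 11 overlapping ones. No share was computed for neighbouring genes in general. These counts are a description, since all pairs come from the same 9 libraries. HOXC11, whose span overlaps that of HOTAIR, changed by -0.69 (adjusted p = 4.43e-05) with Si-KDM4C#1 and 0.47 (adjusted p = 0.000786) with Si-KDM4C#2. HOXA13, which overlaps HOTTIP, changed by -0.85 (adjusted p = 7.12e-07) and -0.47 (adjusted p = 5.55e-05). PATZ1, 545 bases from LINC01521, changed by -0.19 (adjusted p = 0.00499) and 0.41 (adjusted p = 6.07e-05). Moving against its neighbour with Si-KDM4C#1 were LINC00324, with CTC1 778 bases away at -0.59 (adjusted p = 1.43e-05), and LINC00963, with NTMT1 95198 bases away at 1.16 (adjusted p = 4.24e-07). These neighbours fall outside the naming rule and were chosen after their values were seen.

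Changes across all genes varied with base composition. Genes were split into 5 equal bins by the GC content of the longest transcript. Between the lowest and the highest bin, the median log2 fold change went from -0.27 up to 0.23 for Si-KDM4C#1, and -0.10 up to 0.30 for Si-KDM4C#2. The SNHG genes had a median GC content of 49.3%, against 48.2% for all genes tested. With each library adjusted for GC content, the SNHG genes had 16 up and 1 down for Si-KDM4C#1 (median 0.89), and 14 up and 2 down for Si-KDM4C#2 (median 0.47), while 7 and 1 rose past both limits. Several genes with large rises with Si-KDM4C#2 were rich in GC, among them LINC01703 at 65.2%, LINC01003 at 60.8% and LINC01976 at 60.6%, and the counts of LINC genes past both limits with that siRNA were 4 higher and 1 lower after the adjustment. Shares of all genes after the adjustment are not given here, so the adjusted counts are a description. The part of base composition in these changes was not tested further. The library kit named in the labels does not mark strand, and 52 of the 141 genes, 10 of them SNHG genes, have exons that overlap another gene's, so reads of such pairs cannot be told apart.

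**Figure D5:**
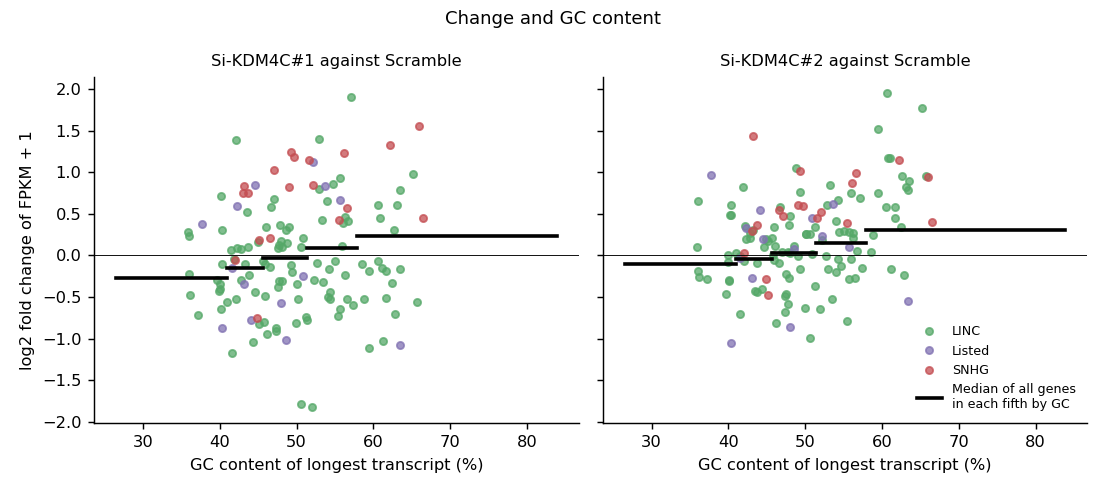
Log2 fold change of FPKM + 1 against the GC content of the longest transcript, in percent, for the 139 genes with an annotated transcript (1 point per gene), with black bars at the median of all tested genes in each of 5 equal bins by GC content. The black bars rise from -0.27 to 0.23 and from -0.10 to 0.30, and most SNHG points lie above them.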

How the data were processed

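RNA of 9 libraries was sequenced, 3 for each of Scramble, Si-KDM4C#1 and Si-KDM4C#2, grouped by the treatment in the labels. For each library the authors deposited the FPKM of 32906 genes. The submitters' processing notes name FastQC 0.11.5, HISAT2 2.1.0, StringTie 1.3.3b, featureCounts, DESeq 1.28.0 and the build GRCh38, without roles or order. The annotation release and the selection of RNA are not given in the sources used here.

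Log2(FPKM + 1) was tested with limma 3.58.1 (limma-trend, R 4.3.3) in 1 fit of all 9 libraries over the 14363 genes whose mean reached 1 FPKM in 1 or more groups, with Benjamini-Hochberg adjustment over all of them. A call needed an FDR under 0.05 and, under the stricter rule, a fold change over 2. Fold changes are on this log2(FPKM + 1) scale, which understates the change of low genes. Fragments were recovered as whole multiples of the value of 1 fragment, within a tolerance of 0.05, for 97.49% of the genes and for 132 of the 141 lncRNAs, which gave library totals of 14597501 to 18058558 and an alternative test by limma voom. Intervals cover counting error only.

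Genes, exon overlaps, snoRNAs and GC content came from GENCODE release 29 (GRCh38) and the promoter and microRNA sequences from RefSeq (GRCh38.p14). Other work used Python 3.11.15 with pandas 2.3.3, matplotlib 3.10.9, numpy 2.4.6 and scipy 1.17.1. The fit was tested on simulated data.

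Named genes were every SNHG gene and listed lncRNA, the 5 LINC genes with the largest change in each direction of each comparison (FDR under 0.05, groups that do not overlap), the 5 most abundant LINC genes, 3 genes on either side of the level limit, KDM4C, and genes of the fixed lists past both limits or among the 3 most abundant others. The lncRNAs and the gene lists were chosen with earlier results of these data known. Alternatives were another pseudocount, filter, normalization and FDR, no fold change limit, only the libraries compared, the replicate number as a block, limma voom and each library left out. Adjustments for GC content and exon length were added after seeing the data. A few genes and 1 sequence are not reported here.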

Additional observations from a re-analysis of the deposited data

How the results depend on the processing

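The counts of genes past both limits were recomputed under each alternative. For Si-KDM4C#1 they were 11 up and 8 down, for Si-KDM4C#2 they were 9 up and 1 down, for Si-KDM4C#2 over Si-KDM4C#1 they were 12 up and 4 down, and for both together 8 up and 2 down. In the same order, a pseudocount of 0.1 gave 19 and 20, 21 and 4, 26 and 7, and 16 and 8, limma voom on recovered fragments gave 18 and 20, 20 and 7, 21 and 8, and 14 and 9, and without the fold change limit there were 46 and 47, 58 and 25, 56 and 29, and 56 and 30. Among the 92 genes with at least 1 FPKM in every library, which are fewer by construction, 4 were down for Si-KDM4C#1, 5 up for Si-KDM4C#2, 5 up for Si-KDM4C#2 over Si-KDM4C#1, and 5 up and 1 down for both together. Quantile normalization gave 2 lower with Si-KDM4C#2, exon length adjustment 5 lower with Si-KDM4C#1, and GC content adjustment 5 higher with both together. Apart from the smaller set of genes, the cause of these shifts was not tested.

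Leaving out 1 library at a time gave 11 to 13 up and 4 to 9 down for Si-KDM4C#1, the 4 without Scramble library 1. For Si-KDM4C#2 it gave 9 to 12 up and 0 to 2 down. No gene was then called lower without Scramble library 1 or 2, and 2 were without Si-KDM4C#2 library 2 or 3. Between the siRNAs the ranges were 11 to 14 higher and 3 to 5 lower, and for both together 8 to 9 higher and 2 to 3 lower.

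The fit with the replicate block gave 11 and 8, 9 and 1, 12 and 4, and 8 and 2. Libraries with the same number did not deviate together (mean r of 0.016 over 9 pairs, against -0.008 over 18 pairs with different numbers), so the number is no evidence of pairing. Of 139 changes of 56 named genes, 2 missed the FDR limit under the block, HOTTIP and SNHG16 with Si-KDM4C#1, and 1 turned direction under any alternative, NORAD with Si-KDM4C#1, at 0.047 after GC content adjustment. Low genes limit the precision, since 35 of the 141 were below 1 FPKM on average in at least 1 group.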
